A study of Mus musculus with 6 samples.

Results

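m6A on the RNA of 4 genes that themselves place or remove m6A was examined in cultured mouse HCICs, cells able to start hepatocellular carcinoma (HCC). They came from livers of male mice taken 3 months after the carcinogen diethylnitrosamine. The genes were the writers Mettl3, Mettl14 and Wtap and the eraser Alkbh5. Their members were every listed m6A position inside 4 gene windows on GRCm39, the build named in the submitters' processing notes. Members were taken by coordinates alone, but the submitters' listing may itself depend on measured values. The windows held 249 of the 567667 listed positions, 56 on Mettl3, 46 on Mettl14, 73 on Wtap and 74 on Alkbh5. The samples compared are written here as MTH-WT 1 to 3 and MTH-D 1 to 3. The 3 MTH-WT samples are labelled wild-type for Mthfd1l, and the 3 MTH-D samples are labelled as its knockout, which the study made with CRISPR/Cas9. MTH-D cells were single colonies grown out after lentiviral guides and Cas9, and MTH-WT cells were single colonies that received the empty vector, so both groups carry Cas9 and each line is 1 clone. The labels give all 6 samples as primary culture in batch 1, and they name neither the HCIC line of a sample nor whether its mouse was a control (CTL) or carried the MDM2 and MDMX double knock-in (DKI). The lines came from separate mice, HCIC-1 from a CTL mouse and HCIC-2 and HCIC-3 from DKI mice. In the edited HCIC-2 line a single nucleotide of Mthfd1l was lost, and the study went on with HCIC-1 and HCIC-3. For its nanopore m6A sequencing the study names only HCIC-1 and HCIC-3, each as a pair of MTH-WT and MTH-D cells. On that account the 3 samples of a group may come from fewer than 3 lines and may not include HCIC-2. No label settles this. If the sample numbers follow the line numbers, which no label says, MTH-D 2 would be HCIC-2. Values over the samples numbered 1 and 3 alone are therefore given as well. The table holds m6A and no expression, so neither loss of Mthfd1l nor any marker of these cells could be checked from it.

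METTL3 is the catalytic subunit of the nuclear complex that methylates adenosines of mRNA, METTL14 is its partner that helps to hold the RNA, and WTAP is the adaptor that brings the pair to its targets. ALKBH5 is a nuclear demethylase that takes m6A off again. The methyl group comes from S-adenosylmethionine, which the methionine cycle makes, and MTHFD1L supplies one-carbon units to that cycle. The transcripts of these enzymes are methylated like other mRNAs, and the question here was how much m6A each carried and whether it differed between MTH-D and MTH-WT cells.

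The windows, counted from 1 in GRCm39, were chr14:52532299-52542586 for Mettl3, chr3:123161945-123179640 for Mettl14, chr17:13185687-13211421 for Wtap and chr11:60427752-60448931 for Alkbh5. In GENCODE M21, an annotation of the older build GRCm38, Alkbh5 lies on the plus strand and the other 3 genes on the minus strand, so the lower coordinate is the 3′ side of Mettl3, Mettl14 and Wtap. The table gives no strand. In GRCm38 the Mettl3 gene shares less than 2 kb at its 3′ end with Tox4, which runs on the other strand, and the other 3 genes overlap no annotated gene. Of the 56 Mettl3 positions, 32 lay within 2000 bases of that edge, and where the genes overlap m6A cannot be assigned to Mettl3 or Tox4. No annotation of GRCm39 was used here, and whether a position lies in an exon, the coding region or a UTR was not analysed. The other writers, the eraser Fto and the m6A readers were not analysed here for the same reason.

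Values are the percent of m6A at a position, which is the deposited fraction times 100. No read number accompanies them, so the depth behind a value is unknown. Of the 249 positions, 162 were listed at exactly 0 in at least 1 sample and none at exactly 100%. Each of the 249 was above 0 in at least 1 sample. Whether the listing required this is not stated, and shares and means over listed positions depend on it. Across the whole table, mean m6A ran from 6.34% in MTH-D 3 to 7.68% in MTH-D 2, and over the 81446 positions averaging at least 10% it ran from 35.8% to 43.4% in the same samples. The samples numbered 2 were the highest and those numbered 3 the lowest of their group in both means.

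Most listed positions of the 4 genes carried almost no m6A. The mean over the 6 samples was under 2% at 167 of the 249 positions, or 67.1%, against 66.4% of the whole table. It reached 10% at 45 positions, or 18.1%, against 14.3% of the whole table, and these 45 are called sites below. The genes differed in this share. Wtap had 25 sites among 73 positions (34.2%), Alkbh5 had 10 among 74 (13.5%), Mettl14 had 6 among 46 (13.04%) and Mettl3 had 4 among 56 (7.14%). Only 5 sites averaged 50% or more, 3 on Wtap and 2 on Alkbh5. Across the 45 sites, which share their libraries, the 15 pairs of samples correlated with Pearson's r from 0.867 to 0.960 and Spearman's rho from 0.813 to 0.934, so high and low sites were much the same ones in every sample.

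Averaged over all listed positions, Wtap carried the most m6A, then Alkbh5, then Mettl14 and Mettl3. Wtap ranged from 9.98% to 15.04% over the 6 samples and Alkbh5 from 5.10% to 7.58%, so these 2 genes did not overlap. Mettl14 ranged from 2.30% to 4.18%, which lay below every Alkbh5 value. Mettl3 ranged from 1.98% to 3.03% and overlapped Mettl14, and the order of these 2 genes turned in MTH-D 1. Over the sites alone Alkbh5 came before Wtap in 5 of the 6 samples. Alkbh5 averaged from 29.8% to 43.5% and overlapped Wtap, which averaged from 25.9% to 38.7%. Among 16604 bins of 20 kb elsewhere in the table, Wtap had more m6A than 84.5%, Alkbh5 than 66.4%, Mettl14 than 49.4% and Mettl3 than 45.6%. This is a description of level, and bins hold parts of genes or several genes.

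**Figure D1:**
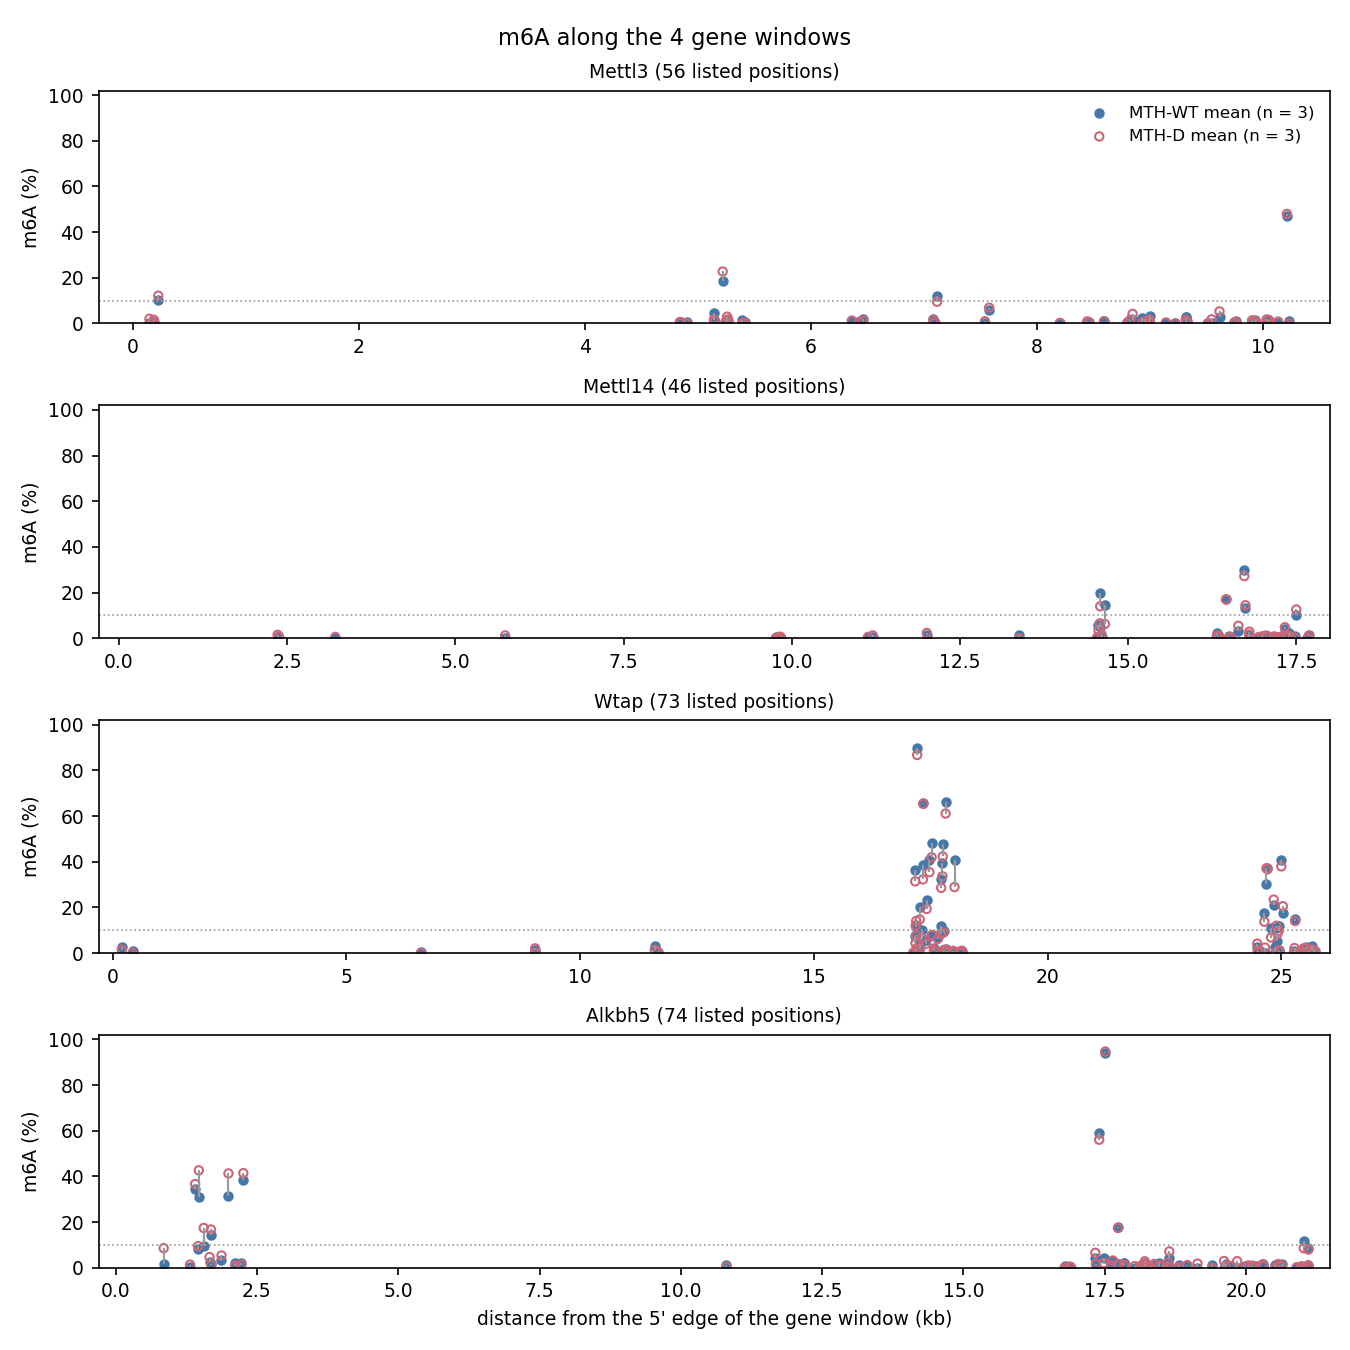
m6A (percent, vertical axis) at each listed position against its distance in kb from the 5′ edge of the gene window (horizontal axis), with filled points for the mean of 3 MTH-WT samples, open points for the mean of 3 MTH-D samples, and a line between them. The dotted line marks 10%. The 25 Wtap sites fall in 2 clusters, the 10 Alkbh5 sites lie toward both ends, and Mettl3 and Mettl14 have few positions above the line.

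Mettl3, the catalytic writer, carried less m6A than Wtap and Alkbh5, and more than 45.6% of the 20-kb bins. Over all 56 positions the mean was 2.96%, 2.76% and 2.18% in MTH-WT 1 to 3 and 3.03%, 3.02% and 1.98% in MTH-D 1 to 3. The groups overlapped, and both samples numbered 3 were the lowest of their group. MTH-WT averaged 2.63% ± 0.408 and MTH-D 2.67% ± 0.605 (SD, n = 3 each). This gap of 0.04 points had p = 0.80 in an exact permutation test, two-sided like all others here, whose smallest possible p in this design is 0.10. Over its 4 sites the means were 21.98% ± 4.23 and 23.1% ± 6.88 (SD, n = 3 each; exact permutation test, p = 0.90). Over the samples numbered 1 and 3 alone the difference was -0.52 points.

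The highest Mettl3 position, chr14:52532377, is 78 bases inside the 3′ edge, where Tox4 also lies in GRCm38. It had 49.1%, 57.5% and 34.3% in MTH-WT 1 to 3 and 53.4%, 47.6% and 42.9% in MTH-D 1 to 3, so the groups overlapped. At the next one, chr14:52537367, which is 5068 bases from that edge, the MTH-WT samples were close to each other at 19.3%, 17.0% and 19.7%, while the MTH-D samples spread from 10.9% in MTH-D 3 through 21.1% to 36.2% in MTH-D 2. This spread was wider than the difference of 4.08 points between the group means. The other sites, chr14:52542359 near the 5′ edge and chr14:52535471, averaged 11.3% and 10.7% over the 6 samples. With the 32 positions near Tox4 left out, an alternative chosen after seeing the data, the difference over the remaining 24 was 0.23 points (exact permutation test, p = 0.80).

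Mettl14, the RNA-binding partner, also carried less m6A than Wtap and Alkbh5, and more than 49.4% of the 20-kb bins. Over all 46 positions its mean was 3.32%, 3.44% and 2.74% in MTH-WT 1 to 3 and 2.70%, 4.18% and 2.30% in MTH-D 1 to 3. The highest and the lowest of the 6 values were both MTH-D samples, numbered 2 and 3. The group means were 3.17% ± 0.376 and 3.06% ± 0.989 (SD, n = 3 each), which is -0.10 points for MTH-D minus MTH-WT (p = 0.90, exact permutation test). Over the 6 sites they were 17.4% ± 1.71 and 15.2% ± 4.37 (SD, n = 3 each), or -2.17 points (p = 0.50, exact permutation test), with MTH-D 1 and 3 below every MTH-WT sample and MTH-D 2 above them. Over the samples numbered 1 and 3 alone it was -3.69 points (p = 0.33, the smallest that an exact permutation test of 2 against 2 allows).

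Of the 6 Mettl14 sites, 4 lay within 1241 bases of the 3′ edge. The highest, chr3:123162914, had 27.7%, 38.0% and 23.5% in MTH-WT 1 to 3 and 18.4%, 36.6% and 26.6% in MTH-D 1 to 3. Both samples numbered 2 were the highest of their group there, and the groups overlapped. Next came chr3:123163186 at 17.0% over the 6 samples, where the group means differed by 0.007 points. The third, chr3:123165055, had 23.5%, 23.1% and 12.7% in MTH-WT and 9.68%, 18.5% and 13.8% in MTH-D. The other named sites, chr3:123162897 and chr3:123162142, averaged 13.9% and 11.4%, with group means that differed by 1.14 and 2.39 points, each less than the SD of at least 1 group. The remaining site, chr3:123164985, had the largest difference of the gene. It had 17.65%, 7.89% and 17.65% in MTH-WT 1 to 3 and 9.80%, 6.90% and 1.89% in MTH-D 1 to 3. Each MTH-D sample was below its same-numbered MTH-WT sample and the groups overlapped, with a difference of -8.20 points against SDs of 5.635 and 4.002 (limma, adjusted p = 0.94).

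Wtap, the adaptor that recruits the writer pair, had the most m6A of the 4 genes over all listed positions, though not over sites, where Alkbh5 was higher in 5 of the 6 samples. Over all 73 positions its mean was 12.1%, 14.98% and 11.6% in MTH-WT 1 to 3 and 10.4%, 15.04% and 9.98% in MTH-D 1 to 3. MTH-D 1 and 3 were below every MTH-WT sample, whereas MTH-D 2 had the highest value of all. The group means were 12.9% ± 1.85 and 11.8% ± 2.80 (SD, n = 3 each), or -1.06 points (p = 0.60, exact permutation test). Over the 25 sites the mean was 31.0%, 38.7% and 29.6% in MTH-WT 1 to 3 and 27.2%, 38.2% and 25.9% in MTH-D 1 to 3. Each MTH-D sample was lower than the MTH-WT sample of its number, with differences of -3.81, -0.414 and -3.67 points. The difference of -2.63 points was smaller than the SD of 4.89 in MTH-WT and 6.79 in MTH-D (exact permutation test, p = 0.50). With the numbers taken as pairs, the exact sign-flip test gave p = 0.25, the smallest that 3 pairs allow. Without MTH-WT 2 the difference over sites was 0.16 points and its direction turned, and without MTH-D 2 it was -6.53 points. Over the samples numbered 1 and 3 alone it was -3.74 points (exact permutation test, p = 0.33, the smallest possible).

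**Figure D2:**
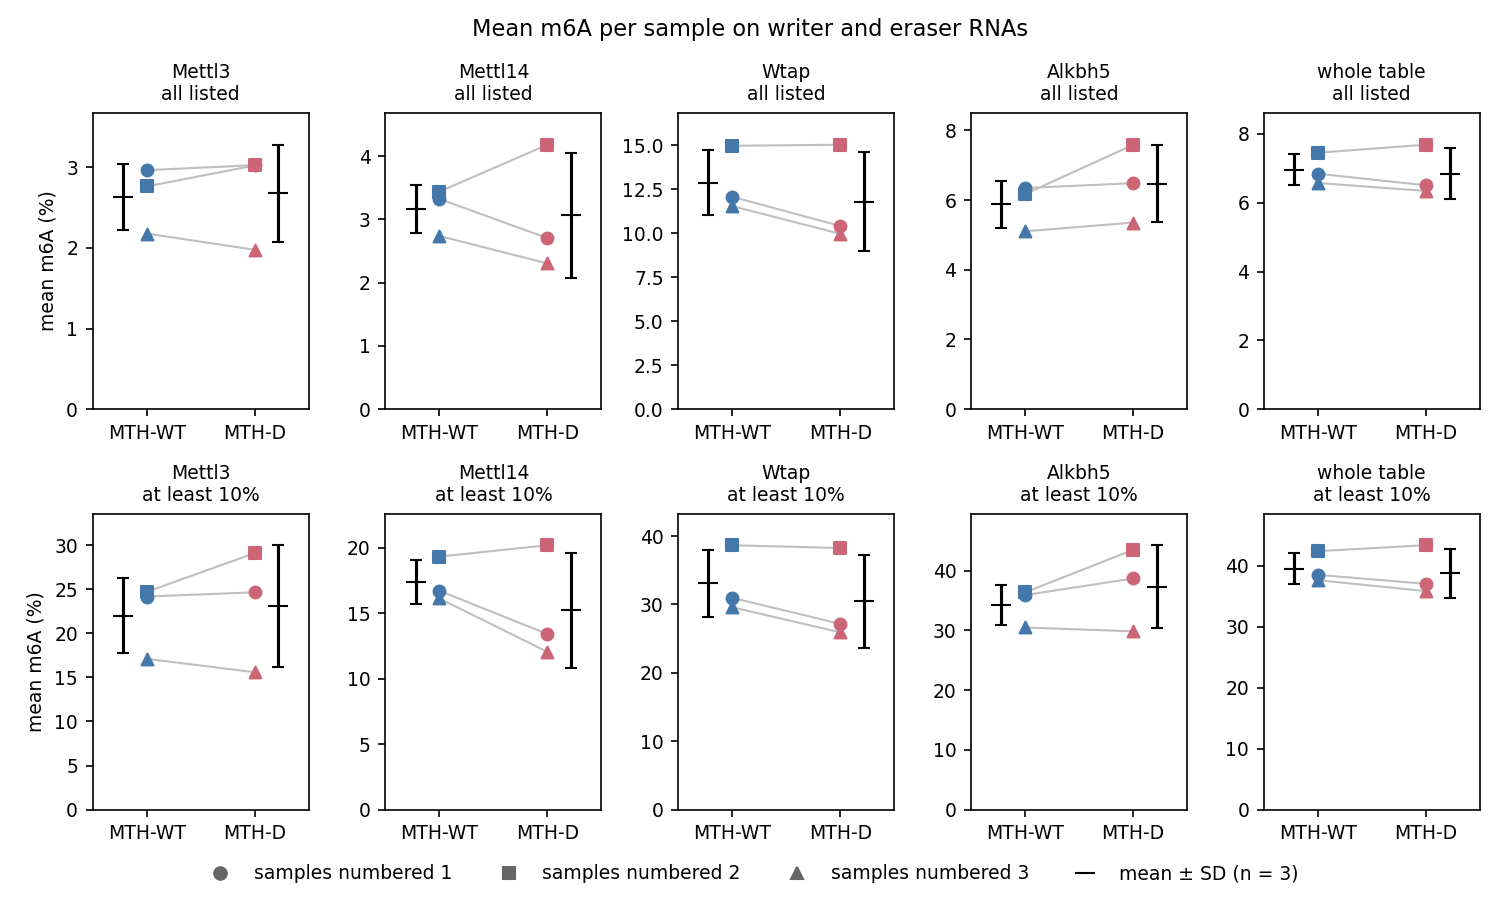
Mean m6A (percent, vertical axes, each from 0) per sample on the 4 genes and in the whole table, over all listed positions (upper row) and over positions averaging at least 10% (lower row). Symbols mark the sample number, grey lines join samples of the same number, and black bars give the mean ± SD (n = 3). In every panel the groups overlap. In the lower row the sample numbered 2 is the highest and that numbered 3 the lowest of each group.

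The Wtap sites lay in 2 clusters of listed positions, defined after seeing the data by gaps of more than 500 bases and therefore described without a test. The inner cluster, chr17:13193256-13194294, began 7569 bases from the 3′ edge and held 38 positions, 16 of them sites. It averaged 17.3%, 20.6% and 16.9% in MTH-WT 1 to 3 and 13.9%, 19.6% and 15.1% in MTH-D 1 to 3. MTH-D was lower than MTH-WT in all 3 numbers, with differences of -3.395, -1.02 and -1.77 points, and at 14 of the 16 sites. The 3′ edge cluster, chr17:13185700-13186937, held 28 positions and 9 sites. It averaged 7.71%, 10.8% and 6.74% in MTH-WT 1 to 3 and 8.18%, 12.3% and 5.35% in MTH-D 1 to 3. There the differences had no common direction, with MTH-D higher in the samples numbered 1 and 2, lower in those numbered 3, and lower at 5 of the 9 sites.

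The 5 highest Wtap sites were all in the inner cluster. At chr17:13194212, the second most methylated of all 249 positions, m6A was 88.0%, 92.1% and 89.6% in MTH-WT 1 to 3 and 86.7%, 90.3% and 83.2% in MTH-D 1 to 3. Each MTH-D sample was below its same-numbered MTH-WT sample, and the groups overlapped. The next site, chr17:13194082, had 60.7%, 68.5% and 67.3% in MTH-WT and 73.7%, 68.8% and 53.5% in MTH-D, with group means of 65.5% and 65.3%. At chr17:13193604 the values were 58.2%, 74.3% and 66.4% in MTH-WT and 49.5%, 72.3% and 61.5% in MTH-D. Group means there differed by -5.22 points against SDs of 8.06 and 11.45. At chr17:13193904 and chr17:13193664 they differed by -6.32 and -5.36 points, again less than the SD of MTH-D.

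One of the 45 sites had MTH-D and MTH-WT values that did not overlap, chr17:13194155 in the inner Wtap cluster. It had 20%, 22.2% and 18.52% in MTH-WT 1 to 3 and 12.7%, 18.48% and 13% in MTH-D 1 to 3, so that the highest MTH-D value was just under the lowest MTH-WT value. The means were 20.2% ± 1.86 and 14.7% ± 3.26 (SD, n = 3 each), and the position did not pass limma with Benjamini-Hochberg adjustment over the whole table (adjusted p = 0.94). Among all positions averaging at least 10%, 3.38% were lower without overlap and 2.07% higher, so 1 of 45 lower and 0 of 45 higher was no more than the background. The largest difference at a Wtap site was -11.65 points at chr17:13193413, where MTH-D 1 had 18.45% against 42.3% in MTH-WT 1 and the samples numbered 2 and 3 differed less.

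Alkbh5, the eraser, had fewer sites than Wtap but the highest single one. Over all 74 positions its mean was 6.35%, 6.17% and 5.10% in MTH-WT 1 to 3 and 6.49%, 7.58% and 5.35% in MTH-D 1 to 3. MTH-D was higher in each number, by 0.14, 1.41 and 0.25 points, and the groups overlapped. The group means were 5.87% ± 0.672 and 6.48% ± 1.11 (SD, n = 3 each), or 0.60 points (p = 0.40, exact permutation test, and p = 0.25 in the exact sign-flip test over the numbers). Over the 10 sites the means were 34.2% ± 3.27 and 37.3% ± 6.91 (SD, n = 3 each), or 3.08 points (p = 0.50, exact permutation test), with MTH-D 3 at 29.8% below all other samples. Without MTH-D 2 that difference was 0.01 points, without MTH-D 3 it was 6.83 points, and over the samples numbered 1 and 3 alone it was 1.06 points.

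At chr11:60445261, 3670 bases from the 3′ edge, m6A was 95.6%, 93.3% and 93.2% in MTH-WT 1 to 3 and 97.6%, 95.3% and 91.2% in MTH-D 1 to 3. This position was nearly fully methylated in every sample and the groups overlapped. The second, chr11:60445153, had 63.3%, 57.5% and 56.4% in MTH-WT and 56.5%, 57.7% and 54.1% in MTH-D. The next 3 lay near the 5′ edge. At chr11:60430011 the values were 30.1%, 54.4% and 30.5% in MTH-WT and 37.0%, 50% and 37.4% in MTH-D, with the sample numbered 2 far above the others in each group. At chr11:60429223 they were 38.5%, 30.8% and 24.1% in MTH-WT and 49.1%, 52% and 26.9% in MTH-D, higher in MTH-D in every number, and this was the largest difference among the Alkbh5 sites at 11.6 points. At chr11:60429748 the MTH-WT samples were close, at 30.8%, 33.3% and 30.5%, and the MTH-D samples had 42.1%, 56% and 25.9%.

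The 2 ends of Alkbh5 were described with the same gap rule and without a test. The 5′ cluster, chr11:60428602-60430011, held 14 positions and 6 sites, and all 6 had a higher mean in MTH-D. It averaged 14.2%, 14.4% and 10.4% in MTH-WT 1 to 3 and 16.8%, 21.1% and 11.4% in MTH-D 1 to 3. MTH-D was higher in all 3 numbers, by 2.60, 6.68 and 0.97 points. The 3′ cluster, chr11:60444541-60448854, held 59 positions and 4 sites and averaged 4.26% ± 0.345 in MTH-WT and 4.22% ± 0.262 in MTH-D (SD, n = 3 each). The gap between groups was less than either SD, and its 4 sites included 3 with a lower mean in MTH-D.

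**Figure D3:**
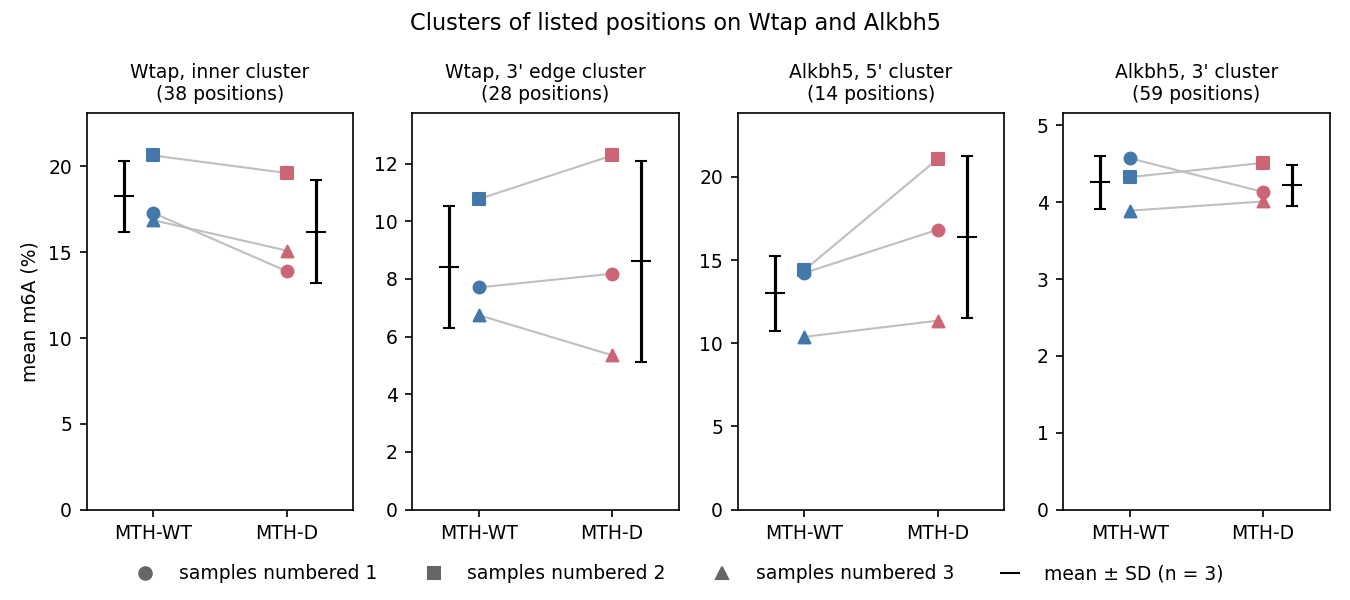
Mean m6A (percent, vertical axes, each from 0) per sample over the 2 larger clusters of listed positions on Wtap and on Alkbh5. Symbols mark the sample number, grey lines join samples of the same number, and black bars give the mean ± SD (n = 3). All 3 lines descend in the inner Wtap cluster and all 3 climb in the 5′ Alkbh5 cluster, while the groups overlap in each panel.

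Set side by side, the 45 sites lay on both sides of 0 for MTH-D minus MTH-WT. The MTH-D mean was lower at 26 (57.8%) and higher at 19, against 57.9% lower among all positions averaging at least 10%. By gene, it was lower at 19 of 25 Wtap sites, 3 of 6 Mettl14 sites, 1 of 4 Mettl3 sites and 3 of 10 Alkbh5 sites. The median difference was -3.18 points on Wtap, -1.28 on Mettl14, 1.34 on Mettl3 and 2.24 on Alkbh5, and -0.69 over all positions averaging at least 10%. The spread between samples was of the same order, with a median SD over the 45 sites of 6.09 points in MTH-WT and 6.60 in MTH-D. In the samples numbered 1, 2 and 3, MTH-D was lower at 26, 22 and 32 of the 45 sites. The whole table also swung between numbers, with MTH-D lower at 47797, 35507 and 50370 of the 81446 positions averaging at least 10%. MTH-D was higher in none of the 3 numbers at 11 of the 45 sites, and higher in all 3 at 3. Of the 11, 9 were on Wtap, 1 on Mettl14 and 1 on Alkbh5. Of the 3, 1 was on Wtap and 2 on Alkbh5. Such agreement also occurred elsewhere, at 14000 and 7387 of all 81446 positions averaging at least 10%. Whether its share on these genes differs from that of the whole table was not tested. Sites of 1 gene share their RNA and are not replicates.

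**Figure D4:**
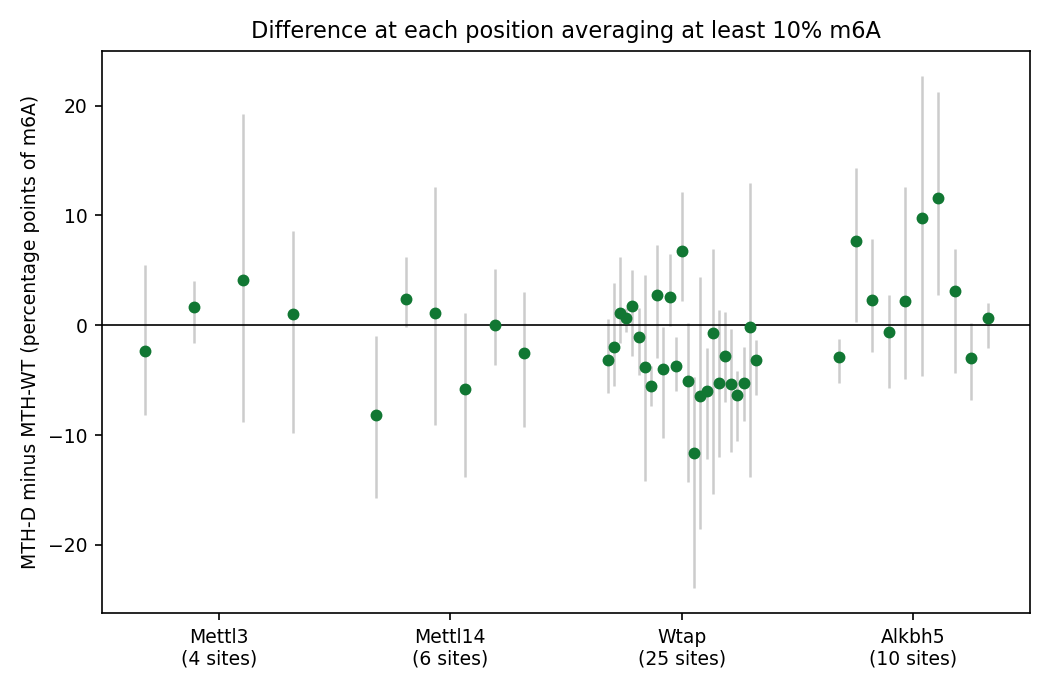
Difference in m6A between the MTH-D and MTH-WT means (percentage points, vertical axis) at the 45 sites, grouped by gene (horizontal axis) and ordered within a gene by their mean level. Green points are differences of group means (n = 3 each), and grey lines span the 3 differences between samples of the same number. Differences run from -11.65 to 11.56 points, and 19 of 25 Wtap points are below 0.

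None of the 249 positions passed an adjusted p of 0.05 in limma with Benjamini-Hochberg adjustment over the whole table, in which 0% of positions passed. At an unadjusted p under 0.05 limma had 11 of the 249, or 4.42%, against a background of 3.22%. These 11 were 4 on Mettl3, 1 on Mettl14, 4 on Wtap and 2 on Alkbh5, 4 lower and 7 higher in MTH-D, and all averaged 5.24% or less, so none was a site. The smallest adjusted p among the members was 0.1885, at chr11:60447594 on Alkbh5. That position was at 0 in every MTH-WT sample and may be listed only through MTH-D, so its p-value gives no support for a difference.

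As whole units tested beside the 20-kb bins, the 4 genes differed by 0.04 ± 0.41 points on Mettl3, -0.10 ± 0.55 on Mettl14, -1.06 ± 1.66 on Wtap and 0.60 ± 0.67 on Alkbh5 (difference ± SE in limma, n = 3 in each group). Each adjusted p was 0.9999, and 0% of the 16608 units passed, with 279 at an unadjusted p under 0.05 and no gene of the 4 among them. With the sample number as a block, limma gave unadjusted p-values of 0.0815 for Wtap and 0.165 for Alkbh5, and adjusted p-values of 0.95 and 0.99. Among the bins, 58.1% were lower in MTH-D, with a median difference of -0.06 points. That share was 76.1% without MTH-D 2 and 39.7% without MTH-D 3. In points, the Wtap difference was below that of all but 5.27% of the bins, and the Alkbh5 difference was above 93.6% of them. This ranking was not scaled by level. Wtap averaged 12.34% and Alkbh5 6.175%, against a median of 3.198% among the bins.

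In the library mean, as over the sites of each gene, the sample numbered 2 was the highest and that numbered 3 the lowest of its group. Relative to the library mean over positions averaging at least 10%, chosen after seeing the data, the differences over sites were 1.88 points on Mettl3, -1.41 on Mettl14, -1.87 on Wtap and 3.84 on Alkbh5 (exact permutation tests, p = 0.50, 0.10, 0.50 and 0.20), where 0.10 is the smallest p possible. The library mean was subtracted in points, and the directions over sites remained. No correction in proportion to the level of each gene was made. The part of library level in the differences was not tested.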

How the data were processed

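RNA of 3 MTH-WT and 3 MTH-D HCIC samples was read by nanopore direct RNA sequencing from 1000 ng of total RNA, with 1 flow cell per sample run for up to 72 h. Per position and sample, the deposited table gives the m6A fraction (0 to 1), without coverage or strand. Depth is therefore unknown, and neither intervals nor read tests were made. The submitters' processing notes name GRCm39, minimap2 2.26 and SAMtools. Basecaller, modification model and filters are not given in the sources used here. Against GENCODE M21 transcripts, which are on GRCm38, 93.8% of the 9029 positions in the first 59 Mb of chromosome 4 fell on the adenosine of a DRACH motif when read as counted from 0, and 0.875% when read as counted from 1. Positions were taken as counted from 0, and 1 was added to those printed. No coordinates were converted.

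Fractions were multiplied by 100. Means per gene and sample were compared by two-sided exact permutation tests. Single positions were fitted over the whole table as log2((percent + 1) / (100 - percent + 1)) with limma 3.58.1 (R 4.3.3) and Benjamini-Hochberg adjustment. No GRCm39 annotation was used, so the genes were tested as units beside 20-kb bins with at least 5 positions, on mean percent. The study describes separately picked colonies in lines from separate mice, but no label ties a sample to a line or mouse. As an alternative, the numbers were also used as pairs. Deviations of same-numbered samples correlated at 0.164, 0.223 and 0.133 across positions averaging at least 10%. Samples of unlike number were not compared, so these correlations cannot show that the numbers are true pairs. On simulated data limma called 42 of 200 positions changed by 4 in log2 odds, 0 of 200 at changes of 1 or 2, and 43, 151 and 181 of 200 units changed by 2, 5 and 10 points. Positions named were, per gene, up to 5 with the highest mean among sites, then up to 3 sites without overlap between groups, then any past an adjusted p of 0.05. Chosen after their values were seen were chr17:13193413, chr3:123164985 and the low positions in the closing section. Alternatives left out each sample or, since the study names HCIC-1 and HCIC-3 for its m6A sequencing, used the samples numbered 1 and 3. Others used the median, positions without exact 0 or 1, other limits on level and another offset. The members, lists and tests were chosen with earlier results of these data known.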

Additional observations from a re-analysis of the deposited data

How the results depend on the processing

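Since depth is unknown, the counting error of values at single positions could not be estimated. Without each sample in turn, the MTH-D minus MTH-WT difference over all positions ranged from -0.19 to 0.39 points on Mettl3, -0.66 to 0.28 on Mettl14, -2.67 to -0.002 on Wtap and 0.05 to 1.16 on Alkbh5. Over sites it ranged from -1.87 to 4.87, -4.66 to -0.58, -6.53 to 0.16 and 0.01 to 6.83 points. The exact permutation p was 0.10 or more throughout. The samples numbered 1 and 3 alone turned Mettl3 to -0.0691 points over all positions and -0.52 over sites. The median in place of the mean turned Mettl3 to -0.20, Mettl14 to 0.19 and Alkbh5 to -0.06 points over all positions, and the library-relative value, chosen after seeing the data, turned Mettl14 to 0.00808. The cause was not tested. With only positions that had no fraction of exactly 0 or 1, the 4 differences over all positions kept their direction. This left 7 positions on Mettl3, 10 on Mettl14, 41 on Wtap and 29 on Alkbh5. No site had such a fraction, so this filter left the differences over sites as they were and could not turn them. The 4 over sites kept their direction with a limit of 5% or 20%, where 20% left only 2 positions on Mettl3 and 1 on Mettl14.

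Pairing by sample number (the replicate block) gave -1.06 points for Wtap (exact sign-flip test, p = 0.50) and 0.60 for Alkbh5 (p = 0.25), which with 3 complete pairs equals the unpaired one by arithmetic. The block changed no call. No position passed limma in any alternative run. Members at an unadjusted p under 0.05 numbered 11, 13 with the block, 21 over the samples numbered 1 and 3, from 12 to 17 without 1 sample, and 0 of 45 when only positions averaging at least 10% were tested. Over the whole table the count was 18299, 41997 over the samples numbered 1 and 3, 30337 without MTH-D 2, and 2012 of 81446 positions averaging at least 10%. Units at an unadjusted p under 0.05 numbered 279, 893 with the block, 997 without MTH-D 2 and 1084 over the samples numbered 1 and 3. In that last set Wtap was among them, at -1.615 points with a limma p of 0.0103 and an adjusted p of 0.70. Units built only from positions averaging at least 10%, over all 6 samples, gave 1 call among 5808, which was none of the 4 genes. Mettl3 had too few sites to enter that run. Leaving out positions shared with a gene on the same strand was not run, since no GRCm39 annotation was used.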

Other observations

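Some positions of very low m6A differed in whether they were listed at 0, and they are given as values chosen after they were seen. A position at 0 throughout one group may be listed only through the other group. A test there gives no support for a difference. At chr11:60447594 on Alkbh5 all 3 MTH-WT samples were listed at 0, and MTH-D 1 to 3 had 2.50%, 4% and 2.27%. At chr11:60428602, the first Alkbh5 position from the 5′ edge, MTH-WT 1 to 3 had 5.56%, 0% and 0%, and MTH-D 1 to 3 had 6.98%, 10% and 8.89%. On Wtap, chr17:13185715 and chr17:13193436 were listed at 0 in all MTH-WT samples and at 0.59% to 1.72% in the MTH-D samples, whereas chr17:13186157 was listed at 0 in all MTH-D samples and at 0.74% to 1% in MTH-WT. On Mettl3, chr14:52533657 and chr14:52533589 were listed at 0 in MTH-D 1 and 3, had 1.22% and 1.28% in MTH-D 2 and ranged from 1.69% to 4.65% in MTH-WT. Likewise chr14:52533267 was listed at 0 in MTH-D 2 and 3, had 1.75% in MTH-D 1 and ranged from 1.96% to 4% in MTH-WT. These 3 lie within 2000 bases of the edge near Tox4. In the other direction, and 5029 bases from that edge, chr14:52537328 had 0.91%, 0% and 0% in MTH-WT 1 to 3 and 1.08%, 3.28% and 4.55% in MTH-D 1 to 3. The other low positions at an unadjusted p under 0.05 in limma were chr3:123165036 on Mettl14 and chr17:13186140 on Wtap, both with a higher mean in MTH-D, by 1.21 and 1.59 points. The share of single values listed at 0 was 47.9% on Mettl3, 46.4% on Mettl14, 29.5% on Alkbh5 and 23.5% on Wtap.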
